A study of Mus musculus with 384 samples.

Results

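Interferon regulatory factors (IRFs) are transcription factors that share a DNA-binding domain recognising repeats of GAAA. The 8 IRF genes described here, Irf1, Irf2, Irf3, Irf4, Irf5, Irf7, Irf8 and Irf9, were chosen by name from the 22350 protein-coding genes of the GENCODE vM1 annotation. Their surroundings were read from 1 list of 50000 accessible windows of 500 bp, given in mouse build mm9. Of these windows, 76 had their centre within 50 kb of an annotated transcription start site of at least 1 IRF gene. A promoter window is a window centred within 1 kb of a start site.

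The list came from Pi-ATAC, in which transposase cuts open chromatin in fixed, antibody-stained cells that are then sorted singly into wells. All cells came from a breast tumor of an MMTV-PyMT mouse, in which a viral oncogene driven by a mammary tumor virus promoter causes cancer of the mammary epithelium. They were stained for EpCAM, found on epithelial cells, and CD45, found on leukocytes, and filled 4 plates of 96 wells. In the paper, CD45-positive cells outnumbered EpCAM-positive cells among those that passed its filter, although they were few among all stained tumor cells. All wells formed 1 group without a control group, and the labels gave neither the animal's age nor the stain of any well, so epithelial and immune cells could not be told apart in the list. There was no replicate, score or read count, so the depth behind a window is unknown and no test between conditions was possible. Exact binomial (Clopper-Pearson) 95% intervals given for shares cover counting error only, and windows near the same gene are not independent.

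IRF3, IRF5 and IRF7 carry signals from sensors of foreign nucleic acid to the genes for type I interferons and inflammatory cytokines, and become active when kinases phosphorylate them. IRF9 acts with STAT2 downstream of the interferon receptors, whereas IRF1 is induced by interferon gamma and IRF2 can oppose it at shared sites. IRF4 and IRF8 direct the development of lymphoid and myeloid cells and often bind DNA beside the ETS factor PU.1 or the AP-1 family member BATF. STAT family proteins bind the gamma-activated sequence (GAS), an inverted repeat.

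A selection of the stretches of accessible DNA that held an IRF, ETS-IRF or GAS word in the windows nearest to Irf1, Irf2, Irf5, Irf7 and Irf8 is shown here, because IRF and STAT proteins are known to recognise such letters. Stretches in a UTR and those farther from the genes are left out. The IRF word was GAAANNGAAA, the ETS-IRF word GGAANNGAAA and the GAS word TTCNNNGAA, each sought on both strands. Each stretch is written 5′ to 3′ in the direction of transcription of its gene, and capitals mark the letters of a word on either strand.
Irf1, GAS word, chr11:53583381-53583479, plus strand: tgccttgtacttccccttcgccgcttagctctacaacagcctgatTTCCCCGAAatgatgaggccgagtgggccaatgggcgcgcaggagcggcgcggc
Irf2, overlapping ETS-IRF and IRF words, then a GAS word, chr8:47824820-47824928, plus strand: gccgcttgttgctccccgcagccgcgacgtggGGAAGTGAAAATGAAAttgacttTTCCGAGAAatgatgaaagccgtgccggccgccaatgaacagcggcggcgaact
Irf5, ETS-IRF word, chr6:29474165-29474264, plus strand: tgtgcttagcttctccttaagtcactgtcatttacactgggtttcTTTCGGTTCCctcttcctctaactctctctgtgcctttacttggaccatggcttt
Irf5, a pair of GAS words, chr6:29474452-29474573, plus strand: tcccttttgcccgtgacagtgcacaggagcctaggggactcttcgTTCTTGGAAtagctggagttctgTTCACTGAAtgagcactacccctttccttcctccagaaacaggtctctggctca
Irf7, IRF word, chr7:148451954-148452053, minus strand: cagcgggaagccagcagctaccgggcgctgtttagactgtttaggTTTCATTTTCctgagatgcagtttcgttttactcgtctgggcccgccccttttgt
Irf7, IRF word, chr7:148454532-148454631, minus strand: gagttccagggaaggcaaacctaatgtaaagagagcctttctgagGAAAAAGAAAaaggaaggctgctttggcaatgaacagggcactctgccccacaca
Irf8, GAS word, chr8:123258633-123258731, plus strand: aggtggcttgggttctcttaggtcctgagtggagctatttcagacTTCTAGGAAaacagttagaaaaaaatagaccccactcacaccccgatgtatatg
Irf8, a pair of GAS words, chr8:123260063-123260158, plus strand: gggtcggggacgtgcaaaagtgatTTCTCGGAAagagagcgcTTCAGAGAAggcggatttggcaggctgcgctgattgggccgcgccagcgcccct

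The GAS words at the promoters of Irf1, Irf2 and Irf8 all lay upstream of the gene's 5′ end, that of Irf1 82 bp away and those of the others farther upstream. The Irf2 promoter window was the only member promoter window to hold both an IRF word and a GAS word. Its IRF word, at chr8:47824858-47824867, lay in an exon of Gm16675, a noncoding gene on the opposite strand. The Irf7 promoter window held its IRF word in an intron and a further one, TTTCAGTTTC on the plus strand at chr7:148451734-148451743, in a UTR. The other Irf7 stretch and both Irf5 stretches were intergenic, and lay within windows centred 2054 and 2260 bp upstream of the genes' 5′ ends. In the Irf9 promoter window the GAS word TTCTAGGAA lay in a UTR at chr14:56222961-56222969. Each window extends a fixed width around its summit. Of the words in the stretches shown, only the GAS word of Irf1 lay wholly in the central 200 bp of its window. A match gives only the letters in the window and does not show that a protein was bound there.

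Windows were found near all 8 IRF genes, as they were near 84.6% of protein-coding genes, but their number ran from 2 near Irf4 and Irf5 to 24 near Irf8. In between came Irf9 with 6, Irf2 and Irf3 with 7 each, Irf7 with 12 and Irf1 with 16. The median over the 8 genes was 7 and the mean 9.5, beside a median of 3 and a mean of 4.1 over all protein-coding genes. Of the 8, 6 stood above the median of all genes and Irf4 and Irf5 stood below it. Counting only windows nearest to the gene itself, the median was 2 for the IRF genes, beside 1 over all protein-coding genes. The IRF genes had a median of 3 other protein-coding genes within 50 kb, beside 2 over all protein-coding genes.

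A promoter window was present at 6 of the 8 genes, namely Irf1, Irf2, Irf4, Irf7, Irf8 and Irf9, and at neither Irf3 nor Irf5. This share of 75% (34.9 to 96.8) stood beside 43.5% of all protein-coding genes, a background that lay inside the interval. Absence from the list means that no window there ranked among those kept, and does not show closed chromatin. For the stained proteins themselves, Epcam had 9 windows within 50 kb and Ptprc, the gene of CD45, had 4. Neither gene had a promoter window. The paper reports open chromatin specific to the cell type at Epcam in aggregated EpCAM-positive cells and at Ptprc in aggregated CD45-positive cells.

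**Figure D1:**
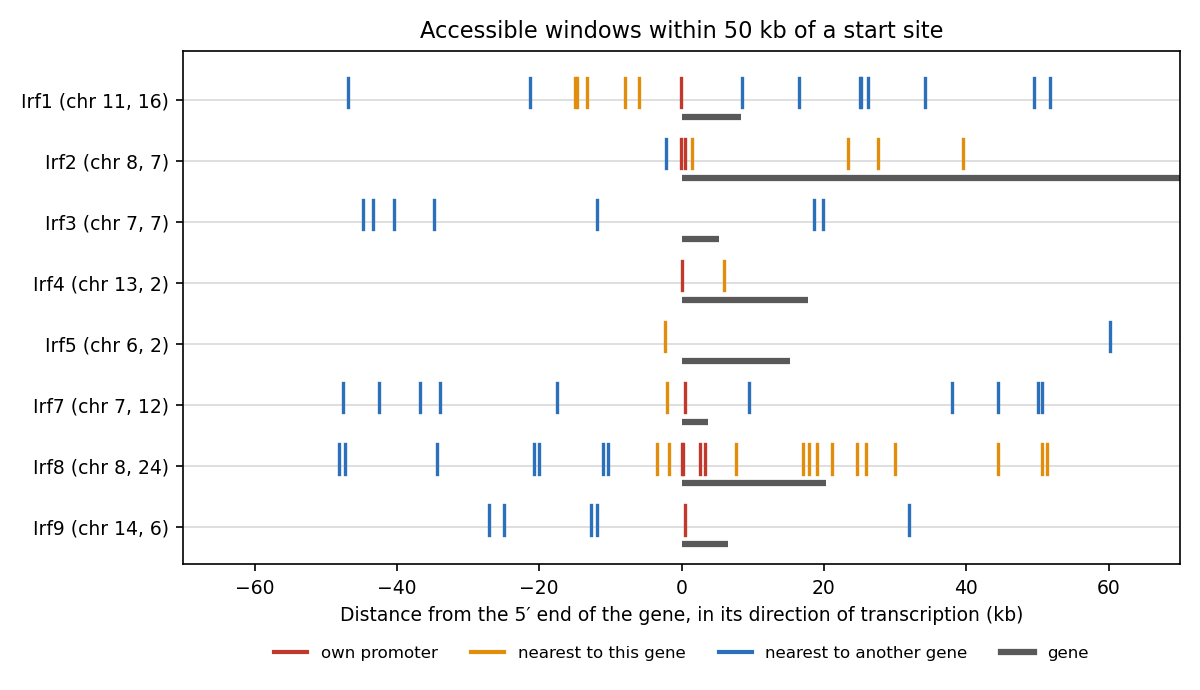
Position of each window (vertical ticks) around the 8 IRF genes, in kb from the gene's 5′ end and in its direction of transcription. The row labels give the chromosome and the number of windows, grey bars show the genes (Irf2 runs past the right edge), and a tick beyond 50 kb lies within 50 kb of an internal start site. Ticks crowd around Irf8, whereas the Irf3 row has none within 10 kb.

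The chromosomes of the members had to be kept apart. Peak names carry a running number from the peak caller, so that numbers missing between neighbouring windows count peaks that were called but did not enter the list. On 16 chromosomes the list kept 23.6 to 26.5% of the called peaks, and on chromosomes 7, 8, 9 and X it kept 41.5 to 51.9%. Irf3 and Irf7 lie on chromosome 7, and Irf2 and Irf8 on chromosome 8. These 4 genes held 50 of the 76 windows, and Irf1, Irf4, Irf5 and Irf9 held 26. Promoter windows were found at 3 of 4 genes in each of these sets, beside 46.4% of protein-coding genes on chromosomes 7 and 8 and 42.8% on the chromosomes outside 7, 8, 9 and X. Against the median of its own chromosome, 5 members were above. The list does not show why these shares differ, although the methods give 1 cut by q for all chromosomes, so a kept or a missing window may not mean the same on both sets. The part of the kept share in the counts was not tested.

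Among the factors that switch on interferon genes, Irf3, which is made constitutively in most cells and waits for phosphorylation, had no window of its own. The gene (ENSMUSG00000003184) spans chr7:52253018-52258218 on the plus strand, and all of its 7 windows were nearest to start sites of other genes. The closest lay 11916 bp upstream, at the promoter of Prmt1, a protein arginine methyltransferase. Downstream, the closest lay 18678 bp from the 5′ end, at the promoter of Scaf1, and the next at the promoter of Rras, a small GTPase. Between the Prmt1 and Scaf1 windows, 30594 bp apart, 4 peaks were called but not kept, and their positions are not in the list. With 14 to 21 called peaks in reach, beside a chromosome median of 8 to 14, the bounds for Irf3 lay at or above those of the median gene. Of the genes on chromosome 7, 35% had at least as many windows as Irf3.

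Irf7, the interferon-inducible factor that amplifies type I interferon production, had 12 windows, of which only 2 were nearest to Irf7 itself. The gene (ENSMUSG00000025498) spans chr7:148448605-148452380 on the minus strand. Its promoter window was centred 37 bp from an internal start site and 534 bp inside the 5′ end, and its other own window 2054 bp upstream of that end. Both held an IRF word, shown above. The remaining 10 windows were nearest to other genes, 1 of them intergenic near Sct and 5 at promoters, with a pair of summits of 1 peak at Rassf7, a pair of separate windows at Phrf1, and 1 window 513 bp from the start of the microRNA gene Mir210. At least as many windows were found at 5.12% of all genes and at 13.6% of those on chromosome 7. Called peaks in reach numbered 17 to 18, against a chromosome median of 8 to 14.

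Irf5, which carries Toll-like receptor signals to inflammatory cytokine genes in myeloid cells, had 2 windows and no promoter window. The gene (ENSMUSG00000029771) spans chr6:29476625-29491869 on the plus strand. Its own window, centred 2260 bp upstream of the 5′ end and intergenic, held an ETS-IRF word and a pair of GAS words. The other lay 60227 bp from the 5′ end in an intron of Tnpo3, a nuclear import receptor, and entered only through an internal start site. Between these windows 3 peaks were called but not kept. Among genes of chromosome 6, 64.2% had at least as many windows, and the median there was 3. Called peaks in reach numbered 5 to 14, beside a chromosome median of 4 to 17.

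Downstream of the interferon receptors, Irf9 had 6 windows, and all 6 were promoter windows of some gene. The gene (ENSMUSG00000002325) spans chr14:56222408-56228867 on the plus strand in a stretch with 11 other protein-coding genes within 50 kb. Its own window was centred 84 bp from an alternative start site and 498 bp inside the 5′ end. The other 5 lay at Gm15932, at Psme1 and Psme2, which encode subunits of the interferon-inducible proteasome activator, at Rnf31, a subunit of the linear ubiquitin ligase, and at Ipo4, a nuclear importer. The window at Gm15932 lay inside Fitm1 and was also a promoter window of that gene, 808 bp from its start site. The windows at Psme1 and Psme2 were centred 8 and 25 bp from their start sites. The windows at Psme1 and Psme2 each held an IRF word with the same letters on the plus strand, TTTCGCTTTC, in a UTR at chr14:56197340-56197349 and chr14:56209774-56209783. On chromosome 14, where the median was 2, 14.3% of genes had at least as many windows. Called peaks in reach numbered 9 to 15, beside a chromosome median of 3 to 14.

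Irf1 had 16 windows on a chromosome with the lower kept share, a count reached by 6 of the 1653 protein-coding genes of chromosome 11 (0.363%) and by 1.73% of all genes. The gene (ENSMUSG00000018899) spans chr11:53583516-53591876 on the plus strand. Its promoter window was centred 24 bp from the start site and held the GAS word shown above. A further 5 windows were nearest to Irf1, all intergenic and centred 5996, 7923, 13278, 14631 and 14931 bp upstream. The last pair overlapped and shared an AP-1 word. Downstream lay 8 windows, among them 3 promoter windows at an internal start site of Gm12216. This gene model on the opposite strand spans 75839 bp and holds 7 of the windows. Neighbouring genes share these windows, so the genes with as many are not independent of Irf1. Called peaks in reach numbered 32 to 34, beside a chromosome median of 7 to 17. On chromosome 11, 0.968% of genes reached its lower bound with their own lower bound and 8.11% its upper bound with their own upper bound.

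Irf2 had 7 windows, equal to the median of chromosome 8, where 55.7% of genes had at least as many. The gene (ENSMUSG00000031627) spans chr8:47825099-47932812 on the plus strand, and 6 of its windows were nearest to Irf2. A single called peak with a pair of summits gave both promoter windows, centred 29 bp upstream and 462 bp downstream of the start site. The other own windows were intronic, centred 1533, 23446, 27550 and 39514 bp downstream. Beside the words shown above, the first promoter window held an ETS-IRF word in a UTR, TTTCATTTCC at chr8:47825205-47825214. The remaining window lay 2168 bp upstream in an intron of Gm16675. With 11 to 17 called peaks in reach, Irf2 overlapped the chromosome median of 11 to 15.

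Of the lineage factors, Irf4, which acts in lymphocytes and dendritic cells, had only 2 windows, and both were its own. The gene (ENSMUSG00000021356) spans chr13:30841095-30858796 on the plus strand and has no other protein-coding gene within 50 kb. Its promoter window was centred 34 bp from the start site and held none of the 10 words searched. The second lay over an exon, 5934 bp downstream, and held an AP-1 word. The median on chromosome 13 was also 2, and 64% of genes there had at least as many windows. Called peaks in reach numbered 4 to 7, the lowest bounds among the 8 genes, beside a chromosome median of 4 to 15. On chromosome 13, 51.7% of genes reached its lower bound with their own lower bound and 89% its upper bound with their own upper bound.

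Irf8, required for the development of monocytes and of a dendritic cell subset, had the most windows of the 8 genes. The gene (ENSMUSG00000041515) spans chr8:123260258-123280594 on the plus strand. Of its 24 windows, from 23 called peaks, 17 were nearest to Irf8 and 4 were promoter windows. A pair of these were summits of 1 peak at the 5′ end, centred 55 and 230 bp inside it, and the others were centred within 500 bp of internal start sites. Within 10 kb of a start site lay 12 windows, a count reached by 0.112% of all genes and 0.647% of those on chromosome 8. Irf8 has start sites spread over 15851 bp, which widens its reach. The windows went on downstream of the gene, with 3 centred 44521, 50619 and 51286 bp from the 5′ end, and upstream to 48124 bp.

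With Irf8 itself included, 29 genes in all (0.13%) and 9 of 1082 on chromosome 8 (0.832%) had at least as many windows within 50 kb. Both the kept and the called peaks placed it high, with 34 to 36 called peaks in reach beside a chromosome median of 11 to 15. Of the genes on chromosome 8, 2.31% reached its lower bound with their own lower bound and 2.87% its upper bound with their own upper bound. Irf1 had nearly as many called peaks, at 32 to 34, but 15 of them were kept against 23 for Irf8. The kept share was 25.8% on chromosome 11 and 51.9% on chromosome 8. The order of Irf1 and Irf8 by windows therefore cannot be read apart from the chromosomes on which they lie. By called peaks alone, the bounds of the pair met at 34 and the bounds of the other 6 genes lay below both.

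**Figure D2:**
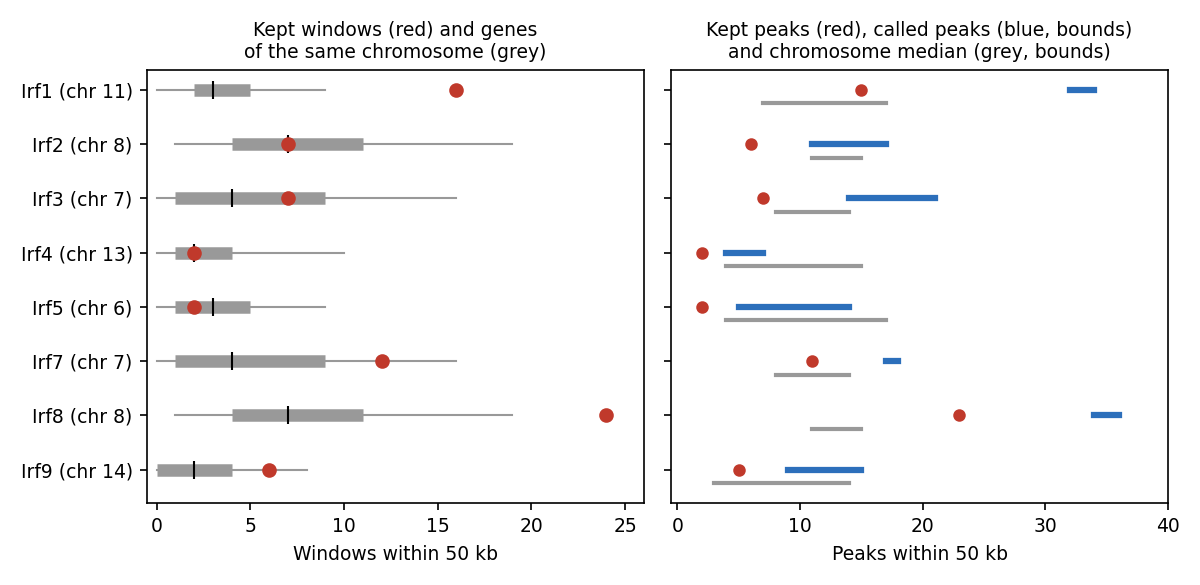
Left, windows within 50 kb of each IRF gene (red) beside protein-coding genes of the same chromosome (grey, median as a black line, thick bar the middle 50%, thin line the middle 90%). Right, distinct kept peaks (red) beside the lower and upper bound of called peaks (blue) and of the chromosome median of called peaks (grey). In the left panel Irf1 and Irf8 stand past the thin grey lines, and in the right panel their blue bars lie close together between 32 and 36.

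By position, 27 of the 76 windows were promoter windows of some gene (35.5%, 24.9 to 47.3), beside 35% of all windows near protein-coding genes. Of these, 10 lay at IRF genes and 17 at other genes. A further 4 lay in exons, 35 in introns (46.1%) and 10 between genes (13.2%), beside 35.6% in introns and 25% between genes for all windows near genes. The intron share rested on Gm20388, a gene model that spans 4434882 bp and contains all 24 windows of Irf8. Counting the 15 windows that lay in no other gene as intergenic gave 20 in introns (26.3%) and 25 between genes (32.9%).

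The 10 promoter windows of the IRF genes, 4 of them from Irf8, held a median of 19 CpG dinucleotides and 56.3% G and C, beside 31 and 59.6% over all 13310 promoter windows. They ranged from 5 CpG in a window at an internal start of Irf8 to 55 at Irf1, and 3 of them, at Irf1 and the 5′ end of Irf8, lay above the median of 31. Away from all promoters, 49 windows near the IRF genes had a median of 8 CpG and 52.4% G and C, beside 6 and 48.2% in all such windows. These values are descriptions of the letters in the windows, without a test.

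The IRF word was found in 5 of the 76 windows, which was 6.58% (2.17 to 14.7) beside 5.51% of all windows. Of these, 1 lay at the Irf2 promoter, 2 were the own windows of Irf7, and 2 were those of Psme1 and Psme2. The ETS-IRF word, which can overlap the IRF word, was found in 4 windows (5.26%, 1.45 to 12.9), beside 4.89%. Both composites of a GAAA motif with AP-1 were at 0, TTTCNNNNTGANTCA beside 0.272% and GAAATGANTCA beside 0.362% of all windows, and the exact interval of 0 in 76 reaches 4.74%. Irf8 held 0 IRF words, but at a share of 5.51% over all windows its 24 windows are too few to set it apart.

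The GAS word was found in 12 windows (15.8%, 8.43 to 26), beside 13.1%, and 5 of these were near Irf8. Among partner words, AP-1 (TGANTCA) was found in 14 windows (18.4%, 10.5 to 29), beside 18.4%, and 6 of these were near Irf8. RUNX (TGTGGTT) was found in 9 windows (11.8%, 5.56 to 21.3), beside 11.6%. PU.1 (GAGGAAGT) was found in 3 (3.95%, 0.822 to 11.1), beside 4.96%. CEBP (TTGCNNAA) was found in 10 (13.2%, 6.49 to 22.9), beside 17.3%. The NF-kB word GGGANTTTCC was found in 0, beside 0.714%, while its degenerate consensus, added after the data had been seen, was in 8 windows (10.5%) beside 12.4%. For each of the 10 words the share of all windows lay inside the interval of the IRF genes' windows.

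**Figure D3:**
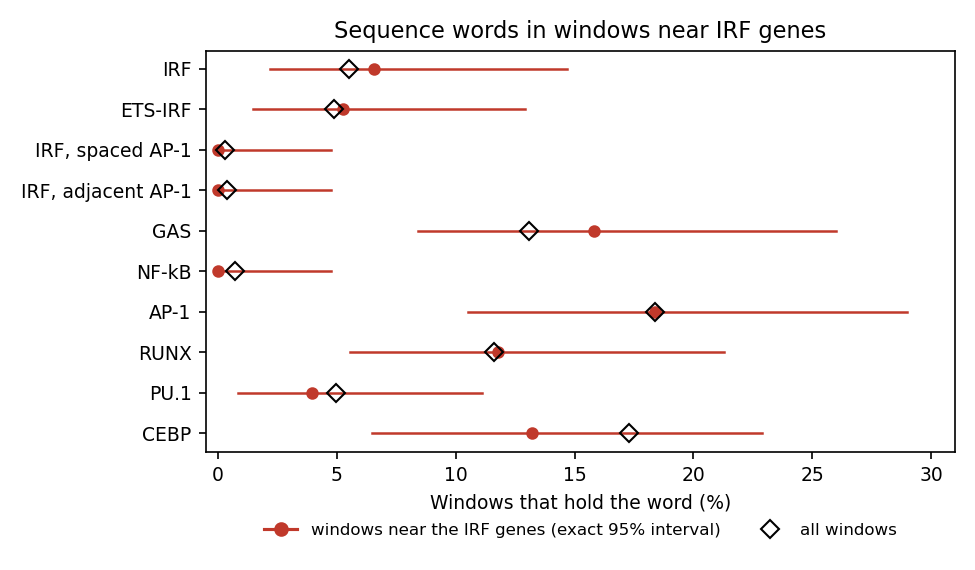
Share of windows, in percent, that hold each word on either strand, for the 76 windows near the IRF genes (red, with exact 95% intervals) and all 50000 windows (open diamonds). Each diamond lies within the red line of its word.

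Counted by gene rather than by window, the IRF word was in a promoter window of 2 of the 6 members that had one, Irf2 and Irf7, beside 6.45% of the 9718 genes with a promoter window. The GAS word was in a promoter window of 4 of 6, Irf1, Irf2, Irf8 and Irf9, beside 13.4%. At least 1 of these words was found at 5 of 6, all but Irf4, beside 18.8%. Wholly within the central 200 bp of a promoter window, the GAS word was left at Irf1 and Irf9 only, and no IRF word was left. No share of all genes is set beside this narrower stretch. Of the 10 words, only IRF and GAS were counted by gene in promoter windows of the list, without an interval or a test. These counts were not among the planned results. Members with a pair of promoter windows or more had more letters to search. In RefSeq promoters of build GRCm38.p6, which are stretches of 300 bp around a start site and do not depend on the list, all 8 members were matched. There the IRF word was found at Irf2 alone, beside 3.99% of 27025 genes, and the GAS word at Irf1, Irf2 and Irf8, beside 9.55%. The ETS-IRF word was found at Irf2 alone, beside 3.16%, and the degenerate NF-kB consensus at Irf1 and Irf2, beside 9.55%. The AP-1 word and the NF-kB word were found at 0 members, beside 8.97% and 0.466%.

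The genes that activate the IRFs or share their DNA binding were described from a list of 30, in 4 roles. A promoter window was found at 24 of them (80%, 61.4 to 92.3), beside 43.5% of all protein-coding genes. Outside chromosomes 7, 8, 9 and X it was found at 19 of 23, beside 42.8%. The median number of windows within 50 kb was 7.5, beside 7 for the IRF genes, with a range of 2 to 28, and 27 genes stood above the median of all genes. The list was put together by hand, and all protein-coding genes include many that are silent in most cells, which was not adjusted for.

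Of 9 nucleic acid sensors and adaptors, 8 had a promoter window (88.9%, 51.8 to 99.7), beside 43.5% of all protein-coding genes. Ddx58 and Mb21d1, which encode the RNA sensor RIG-I and the DNA sensor cGAS, had 13 windows each, the adaptor Ticam1 12 and the adaptor Myd88 11. The RNA sensor Ifih1 had 4. Tmem173, the gene of the adaptor STING, had 3 windows and none at its promoter, the nearest lying 1601 bp from a start site. Of 5 kinases, 4 had a promoter window (80%, 28.4 to 99.5), and this interval held the 43.5% of all genes. There were 10 windows near Tbk1, which phosphorylates IRF3 and IRF7, and 6 near Ikbke. Chuk had 2 windows and none at its promoter.

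Of 8 genes of interferon receptors and JAK-STAT signaling, 7 had a promoter window (87.5%, 47.3 to 99.7). The receptor genes Ifnar2, Ifnar1 and Ifngr2, which lie close together on chromosome 16, had 12, 10 and 7 windows, and Ifngr1 had 5. Stat2 had 4 windows. Tyk2 on chromosome 9 had 22 windows and none at its promoter, the nearest lying 4021 bp from a start site. Of 8 binding partners and cofactors, 5 had a promoter window (62.5%, 24.5 to 91.5), an interval that also held the 43.5% of all genes. Irf2bp2, a corepressor gene on chromosome 8, had 28 windows, more than Irf8, and 23 of them were its own. Irf2bpl had 16 and Spi1, the gene of PU.1, had 11, 2 of them at its promoter. Batf had 6 windows and a promoter window, whereas Batf3, Spib and Irf2bpl had no promoter window.

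**Figure D4:**
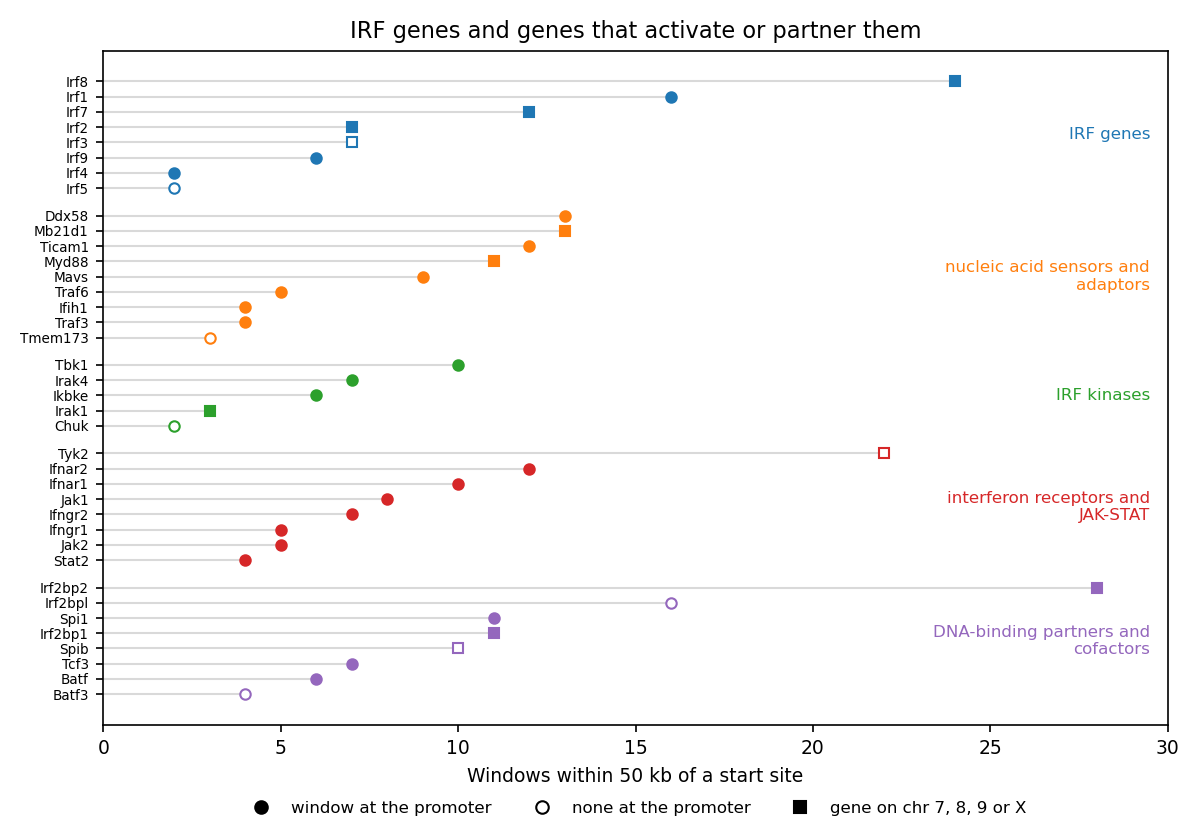
Windows within 50 kb of a start site for the 8 IRF genes and the 30 genes that activate or partner them, grouped by role. Filled symbols have a window at the promoter, open symbols have none, and squares lie on chromosomes 7, 8, 9 or X. Irf2bp2, Irf8 and Tyk2 have the highest counts, at 28, 24 and 22, and all 3 are squares.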

How the data were processed

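Values of unit other, namely window positions, were deposited. By the study's methods and the submitters' processing notes, the authors aligned adapter-trimmed pairs to mm9 using Bowtie2 (2.1.0) and filtered them for quality, duplicates (Picard 1.79) and mitochondrial origin. Summits were called on aggregated cells using MACS2, whose version was not given in the sources used here, with a q threshold of 0.05. Windows of 500 bp were centred on the summits, and by these methods the best 50000 by q made up the list, which does not account for the uneven share of peaks kept per chromosome. The list pools all wells and holds positions and peak names but no score or count, so pooling and the fixed list length set what could be seen.

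Windows were placed by their centre against all GENCODE vM1 transcripts on NCBIM37, the same build, as promoter, exon, intron or intergenic in that order. The lower bound on called peaks came from the running numbers of the first and last kept windows inside each reach. The upper bound came from those of the kept windows flanking it. Counts and shares of genes that reach the value of a gene include that gene itself. Words were searched on both strands. All 8 members, all genes of the pathway list with a promoter window or over 5 windows, and neighbours with a promoter window could be named, and a selection is given. Outside this rule, Tmem173, Chuk, Batf3, Tnpo3, Sct, Mir210, Gm15932, Gm16675 and Gm20388 were named after their values were seen. Of the pathway genes, 3 were found by an older symbol, and 1 gene of the first list is not reported here. The members, lists and words were chosen with earlier results of these data known. Python 3.11.15, numpy 2.4.6, scipy 1.17.1 and matplotlib 3.10.9 were used, and the counting was tested on simulated data. Alternatives changed the reach, the promoter distance, the transcripts, overlapping windows, the chromosomes and the searched width.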

Additional observations from a re-analysis of the deposited data

How the results depend on the processing

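The mean of 9.5 windows per IRF gene followed the reach, with 3.38 within 10 kb and 15.8 within 100 kb, and was 4.38 when only windows nearest to an IRF gene were counted. Without the genes on chromosomes 7, 8, 9 and X the mean was 6.5, and 3 genes with a promoter window were left, of 4 genes. No mean over all genes is set beside these alternatives, so they do not show how far the difference from 4.1 depends on them. Within 10 kb, Irf3 had 0 windows, and Irf5 and Irf9 had 1 each, a count reached by 61.4% of all genes. Irf1 and Irf2 had 4 each, reached by 9.38%. Leaving out each gene in turn gave 7.43 to 10.6 windows per gene, the lowest without Irf8. Merging overlapping windows gave 9 and protein-coding transcripts alone 9.25, with Irf5 at 1 window in place of 2. The 6 genes with a promoter window stayed 6 with promoter distances of 500 bp and 2 kb and with protein-coding transcripts, and the 24 pathway genes became 24, 25 and 19 with 500 bp, 2 kb and without the 4 chromosomes. The share of windows with the IRF word was 1.32% (1 window) in the central 200 bp, a narrower stretch of sequence, and 6.94 to 8.57% under the other 3 alternatives. The locations without Gm20388 and the degenerate NF-kB consensus, whose values are given above, were chosen after seeing the data. No paired analysis was possible because all wells form 1 group in 1 pooled list. With no count per window, depth limits every statement on a missing window.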
